A study of Mus musculus with 6 samples.

Results

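The 8 genes described here encode parts of the bone morphogenetic protein (BMP) pathway and its best-known transcriptional output in mouse embryonic stem cells (mESC). They are the ligands Bmp4 and Bmp7, the receptor Bmpr1a, the inhibitor Smad6 and the targets Id1, Id2, Id3 and Id4. They were chosen by name as parts of a known pathway, with earlier results of these data known, and all 8 were found among the 42450 genes of the table. Total RNA was measured in 6 libraries, 3 from the male line E14tg2a.4 (WT) and 3 from Srrm2+/- cells of the same parental line, which carry a gene-trap insertion that truncates 1 allele of Srrm2. Both lines were grown on gelatin without feeder cells, first in serum with leukemia inhibitory factor (LIF) and before collection in a serum-free medium with LIF. The Srrm2+/- line is a gene-trap line with no rescue or further clone here, and its replicates were frozen at lower passage numbers than those of WT. Genotype, clone and passage therefore cannot be told apart.

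BMP ligands bind paired type I and type II receptors, which phosphorylate SMAD1, SMAD5 and SMAD9. These join SMAD4, enter the nucleus and switch on target genes, of which the Id genes respond most directly. ID proteins have a helix-loop-helix domain but bind no DNA. They pair with E proteins such as TCF3, TCF4 and TCF12 and keep them from activating differentiation genes. In mESC, BMP acting through ID proteins is known to help LIF hold cells in self-renewal and away from neural fate. Whether the serum-free medium held a BMP ligand is not given in the sources used here.

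Library totals lay between 54151532 and 69933465 estimated counts. Srrm2, which encodes a splicing factor and checks the labels, was lower in all 3 Srrm2+/- libraries than in any WT library (log2 difference -0.69 with SE 0.05, adjusted p 2.38e-05 by edgeR). A gene was called when its adjusted p in an edgeR fit over all 18905 genes past the filter on low counts was under 0.05, and 25.3% of those genes were called (13.6% higher and 11.7% lower in Srrm2+/-). The 3 libraries of a group are thaws of separately frozen batches of 1 line, so p-values measure the spread among those batches. Levels are given as normalized CPM, which are counts scaled to the adjusted library size. All 8 genes passed the filter. Of them 5 were called, all higher in Srrm2+/-, and 3 were not called. The same 5 had groups that did not overlap, which held for 41.4% of all tested genes (21.4% higher and 20.0% lower in Srrm2+/-). The median log2 fold change of the 8 was 0.28, beside -0.0025 over all tested genes.

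The ID family gave the largest changes, in Id2 and Id1. Upstream sequence of 2 ID genes and of Bmp4 is shown because Id2 rose most, Id4 was not called and Bmp4 was the BMP ligand with the highest level per length. Capitals mark GGCGCC, the GC-rich word found in elements that SMAD1 and SMAD5 bind. The sequences are RefSeq's on GRCm38.p6, written 5′ to 3′ along the strand of the gene, and stop where an annotated untranslated region begins or at the RefSeq start.
Id2, chr12:25096254-25096342, minus strand, 250 to 162 bases before the RefSeq start and within the first intron of the longest Id2 transcript of GENCODE M21: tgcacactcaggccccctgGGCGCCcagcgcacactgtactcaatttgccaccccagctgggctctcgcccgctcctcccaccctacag
Id4, chr13:48260866-48261115, plus strand, the 250 bases before the RefSeq start: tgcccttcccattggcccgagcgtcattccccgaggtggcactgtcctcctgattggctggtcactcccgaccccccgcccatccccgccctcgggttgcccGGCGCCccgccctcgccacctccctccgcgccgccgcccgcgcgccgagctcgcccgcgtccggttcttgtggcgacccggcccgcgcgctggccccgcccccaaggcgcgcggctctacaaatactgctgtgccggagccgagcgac
Bmp4, chr14:46390670-46390919, minus strand, the 250 bases before the RefSeq start: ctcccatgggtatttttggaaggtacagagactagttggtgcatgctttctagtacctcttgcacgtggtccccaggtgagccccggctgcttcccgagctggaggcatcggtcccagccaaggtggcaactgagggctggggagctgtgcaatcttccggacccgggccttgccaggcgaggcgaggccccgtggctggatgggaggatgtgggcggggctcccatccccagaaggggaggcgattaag

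Windows from 250 bases before to 50 bases after the RefSeq start were searched on both strands for 6 of the 8 genes (Bmp4, Bmpr1a, Smad6, Id2, Id3 and Id4). GGCGCC occurred once in each window of Id2, Id4 and Bmpr1a and in 11.9% of 32851 such windows. GTCT, the short SMAD-binding word, occurred in every member window except that of Id4 and in 88.0% of all windows. GGCGCC followed after 5 bases by GTCT was in none of the 6 and in 0.0731% of all windows. The CArG box, which the serum response factor (SRF) binds, was in none of the 6 and in 1.63% of all windows. The GGCGCC word was therefore present in windows of genes that rose, Id2 and Bmpr1a, and of one that was not called, Id4. It was absent from the windows of Id3 and Bmp4, which rose, and of Smad6, which was not called. No window was at hand for Id1 and Bmp7. Elements outside these windows were not searched, so the absence of a word here does not mean that a gene lacks such an element. Whether the words bear on the changes was not tested.

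Id1 (chromosome 2, 152736251 to 152737410, plus strand) was at 5.69, 5.64 and 5.84 CPM in WT and at 10.04, 10.6 and 13.3 CPM in Srrm2+/-. All Srrm2+/- libraries lay above all WT libraries, and Srrm2+/- replicate 3 was the highest. The mean rose from 5.73 ± 0.106 to 11.3 ± 1.71 CPM (± SD, n = 3), which is 0.98 on the log2 scale with an SE of 0.11 (adjusted p 0.000321, edgeR). Without Srrm2+/- replicate 3 it was 0.85 and still called. The 6 libraries held 313 to 818 counts of Id1.

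Id2 (chromosome 12, 25093799 to 25097140, minus strand) was at 2.36, 2.51 and 1.87 CPM in WT and at 5.35, 4.86 and 5.75 CPM in Srrm2+/-. The lowest Srrm2+/- library stood well above the highest WT library. The mean rose from 2.25 ± 0.336 to 5.32 ± 0.449 CPM (± SD, n = 3), which is 1.24 on the log2 scale with an SE of 0.14 (adjusted p 0.000341, edgeR). This was the largest change among the 8 genes. Of the 31-base words in Id2 transcripts, 1.603% also occur in the processed pseudogene Gm6175, so a few reads could be split between them.

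Id3 (chromosome 4, 136143497 to 136145755, plus strand) was at 6.001, 5.50 and 5.19 CPM in WT and at 6.82, 6.87 and 7.86 CPM in Srrm2+/-. The groups did not overlap, but the gap between them was smaller than for Id1 and Id2. On the log2 scale the difference was 0.37 (SE 0.10, adjusted p 0.0291 by edgeR). The call was lost without WT replicate 2 (adjusted p 0.0751), WT replicate 3 (0.0842), Srrm2+/- replicate 2 (0.052) or Srrm2+/- replicate 3 (0.11). The log2 fold change stayed between 0.30 and 0.43 throughout.

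Id4 (chromosome 13, 48261228 to 48266026, plus strand) was the ID gene that was not called. It was at 4.199, 4.51 and 3.72 CPM in WT and at 3.96, 3.48 and 4.08 CPM in Srrm2+/-, and the groups overlapped. On the log2 scale it differed by -0.11 (SE 0.13, 95% interval -0.39 to 0.17, adjusted p 0.583 by edgeR). The interval excludes a change of the size fitted for Id1 or Id2. An annotated antisense gene across Id4, A330033J07Rik, held between 3 and 16 counts per library, at most 6.35% of the Id4 count. A further opposite-strand gene there, Gm49291, is not among the 42450 genes of the table. Of the 31-base words in Id4 transcripts, 3.12% also occur in other genes, and 117 of these 119 words occur in Gm49291.

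**Figure D1:**
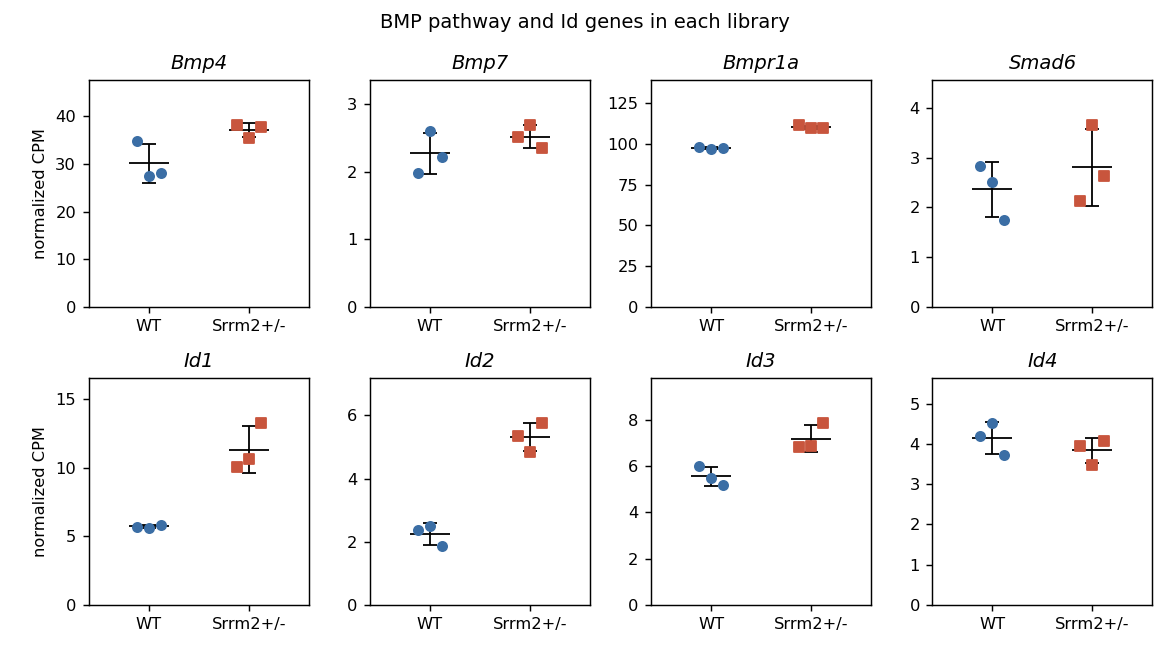
Normalized CPM (y axes, from 0, a scale for each gene) of the 8 genes in the 3 WT (circles) and 3 Srrm2+/- (squares) libraries; bars are the mean and SD. The 2 groups are apart for Bmp4, Bmpr1a, Id1, Id2 and Id3 and overlap for Bmp7, Smad6 and Id4.

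Levels were compared between ID genes per length, as normalized CPM divided by the kilobases of annotated exon. This length joins the exons of all annotated transcripts of a gene, and for Id1 it covers the whole gene (1160 bases). Levels and shares of different genes depend on it, and which transcripts were present was not examined. The summed level of the 4 ID genes was 10.04 ± 0.336 CPM per kb in WT and 16.9 ± 1.99 CPM per kb in Srrm2+/- (± SD, n = 3). Id1 alone made up 49.2 ± 2.51% of this sum in WT and 57.4 ± 2.12% in Srrm2+/- (± SD, n = 3). The share of Id2 went from 9.15 ± 1.13% to 12.9 ± 0.921%, while Id3 went from 30.9 ± 1.35% to 23.7 ± 0.808% and Id4 from 10.7 ± 0.803% to 5.92 ± 0.558% (± SD, n = 3). None of these 4 shares overlapped between the groups, but shares of 1 sum are not independent. The higher levels of Id1 and Id2 alone lower the shares of the others. Id3 thus took a smaller share although its own level was higher, and Id4 took a smaller share although it was not called. These sums and shares are descriptions of chosen genes, with no test.

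**Figure D2:**
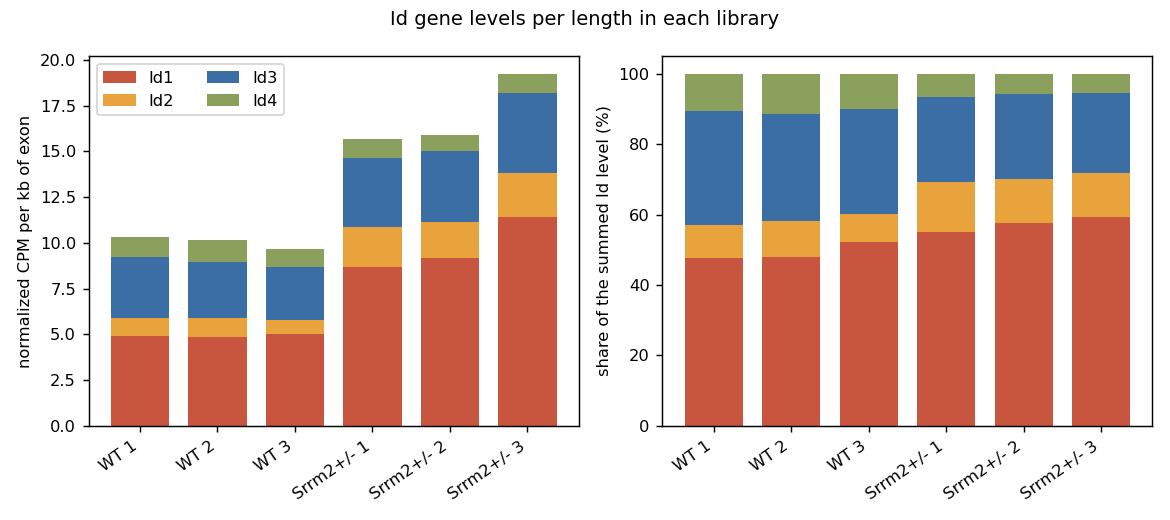
Stacked bars for each library: left, the level of Id1, Id2, Id3 and Id4 in normalized CPM per kb of exon; right, the share of each gene in their sum (percent). The sums are 9.67 to 10.3 CPM per kb in WT and 15.7 to 19.2 in Srrm2+/-, with Id1 the largest part in all 6 libraries.

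Of the ligands, Bmp4 was abundant and higher in Srrm2+/-. Bmp4 (chromosome 14, 46383520 to 46390669, minus strand) was at 34.9, 27.4 and 28.1 CPM in WT and at 38.1, 35.5 and 37.7 CPM in Srrm2+/-. The groups did not overlap, but WT replicate 1 lay close to the lowest Srrm2+/- library. The mean rose from 30.1 ± 4.12 to 37.1 ± 1.43 CPM (± SD, n = 3), which is 0.30 on the log2 scale with an SE of 0.09 (adjusted p 0.0349, edgeR). The call was lost without WT replicate 2 (adjusted p 0.107), WT replicate 3 (0.104), Srrm2+/- replicate 1 (0.0976), Srrm2+/- replicate 2 (0.0561) or Srrm2+/- replicate 3 (0.101). The 2 annotated genes on the opposite strand, Gm15217 and Gm15222, together held at most 2.21% of the Bmp4 count. Of the 31-base words in Bmp4 transcripts, 3.55% also occur in other genes.

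Bmp7 (chromosome 2, 172868012 to 172940321, minus strand), a ligand of a different subgroup from Bmp4, was expressed at a low level. It was at 1.98, 2.59 and 2.22 CPM in WT and at 2.51, 2.68 and 2.35 CPM in Srrm2+/-, and the groups overlapped. On the log2 scale the difference was 0.15 (SE 0.15, 95% interval -0.19 to 0.49, adjusted p 0.526 by edgeR). Of the 31-base words in Bmp7 transcripts, 2.25% also occur in other genes.

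Bmpr1a (chromosome 14, 34410734 to 34503341, minus strand) encodes the type I receptor that BMP4 uses. It was at 97.8, 96.8 and 97.8 CPM in WT and at 111, 109.9 and 109.5 CPM in Srrm2+/-. Libraries of a group differed by little, with an SD of 0.609 CPM around 97.5 in WT and of 0.972 CPM around 110.3 in Srrm2+/- (n = 3 each). The small log2 fold change of 0.18 (SE 0.03, adjusted p 0.00494 by edgeR) was thus clear of the spread, and it remained called in all 14 alternatives. The change corresponds to 1.13-fold. Of the 31-base words in its transcripts, 4.08% also occur in the antisense gene Gm17110, which held at most 42 counts per library.

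Smad6 (chromosome 9, 63953076 to 64022059, minus strand), itself a BMP target, encodes an inhibitory SMAD that dampens the signal. It was at 2.83, 2.51 and 1.75 CPM in WT and at 2.14, 3.65 and 2.64 CPM in Srrm2+/-. The groups overlapped widely, and it had the largest spread of the 8 genes (SD of 23.3% of the mean in WT and 27.5% in Srrm2+/-, n = 3 each). On the log2 scale the difference was 0.25 (SE 0.24, 95% interval -0.29 to 0.79, adjusted p 0.504 by edgeR). Leaving out 1 library moved it between 0.0156 (without Srrm2+/- replicate 2) and 0.41 (without Srrm2+/- replicate 1), at 94 to 252 counts per library.

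Per length, the order in WT was Bmpr1a (15.3 ± 0.0958 CPM per kb), Bmp4 (13.4 ± 1.83), Id1 (4.94 ± 0.0911), Id3 (3.11 ± 0.228), Id4 (1.08 ± 0.105), Id2 (0.921 ± 0.138), Smad6 (0.738 ± 0.172) and Bmp7 (0.564 ± 0.0768; ± SD, n = 3). The library ranges of Bmpr1a and Bmp4 overlapped, and so did each neighbouring pair from Id4 down. In Srrm2+/- the order was the same except that Id2 (2.18 ± 0.184 CPM per kb) stood above Id4 (0.998 ± 0.0828; ± SD, n = 3), with no overlap between them. There the overlapping neighbours were Id4 with Smad6 and Smad6 with Bmp7. The order of different genes, that of Id2 and Id4 included, depends on the exon lengths used.

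The rest of the pathway was read from lists of 57 further genes, of which 42 passed the filter. Of these, 8 were called higher and 5 lower, so 13 of 42 were called, beside 25.3% of all tested genes. Their median log2 fold change was 0.07. The number of called pathway genes was 8 without Srrm2+/- replicate 3, where fewer libraries entered the fit. Of all genes, 3515 of 19464 tested were called there. The number also depended on the filter. It was 9 when a gene had to reach 1 CPM throughout WT or throughout Srrm2+/-. Under that filter 4687 of all 13544 tested genes were called, a larger share than in the reported fit. Bmp2, Nbl1, Nog and Tgfbr3, called higher in the reported fit at 0 to 21 counts per WT library, were not tested there. These genes passed the filter of the reported fit only through their Srrm2+/- levels. The filter thus favoured their upward direction, which adds no separate support.

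Among 12 other BMP ligands, 6 passed the filter and 2 were called, both higher. Bmp2, the closest relative of Bmp4, was almost absent from WT, with 0, 1 and 2 counts, and had 18, 25 and 24 counts in Srrm2+/-. Per scaled library size, the pooled counts gave a ratio of 18.6 (exact 95% Clopper-Pearson interval 6.11 to 92.7, which covers counting error only), and edgeR called it (adjusted p 0.0019). Its fitted log2 difference, which depends on the prior count, was 4.08 and reached 4.97 without WT replicate 3. Per length, Bmp2 reached 0.0949 ± 0.0191 CPM per kb in Srrm2+/-, beside 16.5 ± 0.635 for Bmp4 (SD over the 3 libraries). Bmp8b, a ligand known from germ cell induction, rose from 1.23 ± 0.195 to 2.59 ± 0.472 CPM (± SD, n = 3; log2 difference 1.07 with SE 0.19, adjusted p 0.00369 by edgeR). Bmp10 and Gdf2 had 0 counts in every library.

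All 11 other receptors and co-receptors were tested, with 2 called higher and 1 lower. The type II receptor Bmpr2 was called higher (log2 difference 0.25 with SE 0.08, adjusted p 0.0468 by edgeR) and the type II receptor Acvr2a, which also serves activins, was called lower (-0.18, SE 0.05, adjusted p 0.0221 by edgeR). The co-receptor Tgfbr3 was called higher from 0.172 ± 0.108 to 0.531 ± 0.175 CPM (± SD, n = 3; adjusted p 0.0353 by edgeR). The Bmpr2 call was lost without WT replicate 2 or 3 or any 1 of the Srrm2+/- libraries (adjusted p 0.0683 to 0.146), and with upper quartile scaling (0.051). The Acvr2a call was lost without WT replicate 1 or 3 or Srrm2+/- replicate 2 or 3 (0.0558 to 0.0847), and the Tgfbr3 call without WT replicate 1 or 3 or Srrm2+/- replicate 1 or 3 (0.093 to 0.131). Without WT replicate 2, Tgfbr3 was at 2.25 on the log2 scale, beside 1.61 with all libraries. None of the 3 changed direction. The type I receptors Acvr1 (log2 fold change 0.03, SE 0.17) and Bmpr1b (-0.30, SE 0.17) were not called. The type II receptor Acvr2b (0.45, SE 0.20) and the co-receptors Rgmb (0.21, SE 0.14) and Eng (-0.37, SE 0.14) were not called either. Leaving out WT replicate 1 brought Eng to -0.48 (adjusted p 0.045 by edgeR).

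None of the 4 SMADs that carry the signal was called. Smad1 was at 14.2 ± 1.32 and 14.7 ± 0.515 CPM, Smad5 at 27.5 ± 1.08 and 29.04 ± 1.35 CPM, and Smad4 at 46.6 ± 0.81 and 48.7 ± 0.672 CPM in WT and Srrm2+/- (± SD, n = 3). The 95% interval of the log2 fold change was -0.12 to 0.22 for Smad1, -0.04 to 0.20 for Smad5 and -0.03 to 0.15 for Smad4. Smad9 was low in both groups (means of 0.306 and 0.209 CPM), which overlapped.

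Of 7 other inhibitors inside the cell or in its membrane, 1 was called higher and 2 lower. Skil, which encodes a SMAD corepressor, was called higher (log2 difference 0.28 with SE 0.06, adjusted p 0.0103 by edgeR). Smad7, the second inhibitory SMAD, was called lower, at 46.7, 46.8 and 40.8 CPM in WT and 39.8, 38.2 and 38.6 CPM in Srrm2+/- (-0.20, SE 0.06, adjusted p 0.0344 by edgeR). The Smad7 call was lost without WT replicate 1 or 2 or any 1 of the Srrm2+/- libraries (adjusted p 0.0626 to 0.115). Tob1, which encodes an antiproliferative protein that restrains SMADs, was called lower (-0.39, SE 0.08, adjusted p 0.00533 by edgeR). Bambi, Smurf1, Smurf2 and Ski lay between -0.0279 and 0.0778.

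Of 15 secreted antagonists and modulators, 7 passed the filter, with 2 called higher and 1 lower. Nog, whose product noggin traps BMP2 and BMP4, had 21, 9 and 6 counts in WT and 88, 79 and 54 in Srrm2+/- (log2 difference 2.34 with SE 0.40, adjusted p 0.00286 by edgeR). Nbl1, a DAN family antagonist, had 1, 8 and 7 counts in WT and 65, 54 and 48 in Srrm2+/- (3.09, SE 0.46, adjusted p 0.00143 by edgeR). Without WT replicate 1 the log2 difference of Nog was 3.01. Both genes were higher in every Srrm2+/- library than in any WT library, at means of 1.10 and 0.833 CPM. Both passed the filter only through Srrm2+/-. Twsg1, an extracellular BMP-binding modulator at 46.5 ± 1.23 CPM in WT, was called lower (-0.17, SE 0.05, adjusted p 0.0383 by edgeR). That call was lost without WT replicate 1, 2 or 3 or Srrm2+/- replicate 2 or 3 (adjusted p 0.0555 to 0.139) and with the loosest filter on counts (0.0548). Chrd, which encodes the antagonist chordin, was not called (-0.52, SE 0.23), but was without WT replicate 3 (-0.70, adjusted p 0.0443 by edgeR). Sost had 0 counts in every library.

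None of the 4 tested genes on the list of other BMP targets was called. The inhibitory SMAD genes Smad6 and Smad7 are given above and are not on this list. Dusp9, a phosphatase gene that responds to BMP in mESC, was at 41.5 ± 5.28 and 44.6 ± 2.21 CPM (± SD, n = 3; log2 difference 0.11 with SE 0.09, adjusted p 0.429 by edgeR). Hey1, Msx1 and Msx2 were at or under 1.82 CPM in both groups. The E proteins that ID proteins bind went different ways. Tcf4 was called lower, from 35.4 ± 1.395 to 23.01 ± 1.37 CPM (log2 difference -0.62 with SE 0.06, adjusted p 0.000107 by edgeR), and Tcf12 was called higher, from 32.4 ± 1.24 to 42.2 ± 2.51 CPM (0.38, SE 0.06, adjusted p 0.00134 by edgeR; ± SD, n = 3). Tcf3 was not called (0.08, SE 0.04, adjusted p 0.153 by edgeR).

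**Figure D3:**
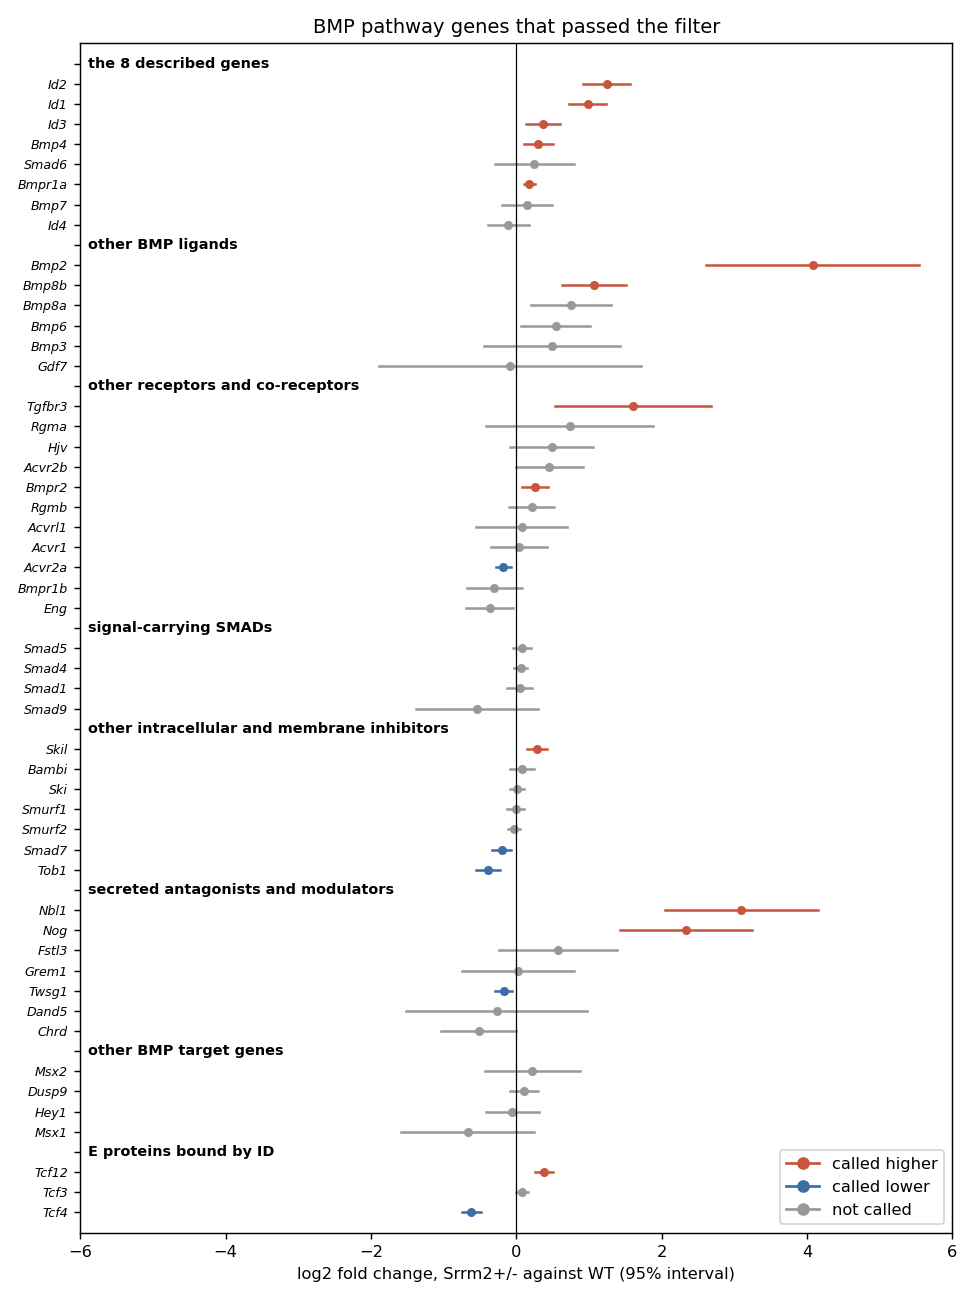
Log2 fold change of Srrm2+/- against WT (x axis) with its 95% interval for each BMP pathway gene past the filter, grouped by role; red genes were called higher, blue lower and grey not called. Bmp2, Nbl1 and Nog lie farthest right with wide intervals, and the SMADs Smad1, Smad4 and Smad5 lie close to 0 with narrow ones.

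For each of the 8 genes, the gene with the most similar profile over the 6 libraries was found among 12067 genes (those whose log2 CPM averaged 1 or more) by Pearson correlation of log2 CPM. Since the 6 points fall into the 2 genotypes, these values mainly rank genes that share the group difference, and many genes come close. For Id2 it was Nr4a1 (r = 0.999, with 679 genes above 0.95), for Id1 Iars2 (0.999, with 732 above 0.95) and for Bmpr1a Tinagl1 (0.9998, with 965 above 0.95). It was Txndc11 for Bmp4 (0.997), Erh for Id3 (0.994), 1110038F14Rik for Bmp7 (0.991), Gmeb1 for Id4 (0.99) and Eci2 for Smad6 (0.982). Fewer genes passed 0.95 for the genes that were not called, with 10 for Bmp7, 7 for Id4 and 8 for Smad6.

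**Figure D4:**
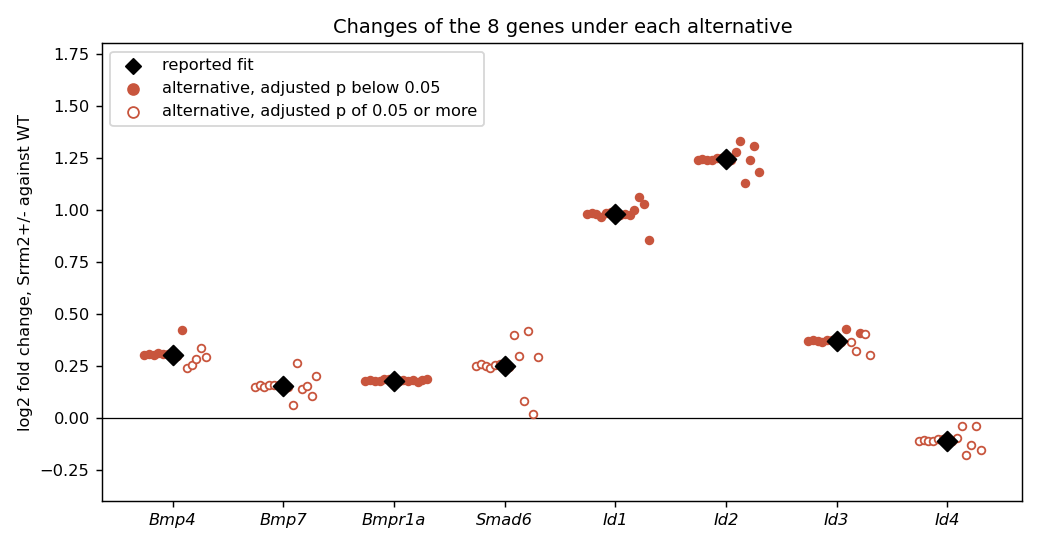
Log2 fold change of Srrm2+/- against WT (y axis) for the 8 genes in the reported fit (diamonds) and in 14 alternative fits (circles, filled where the adjusted p was below 0.05). Id1, Id2 and Bmpr1a are filled throughout, Bmp4 and Id3 only in part, and Bmp7, Smad6 and Id4 never.

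The cells showed the markers of embryonic stem cells in both groups, and markers of other cell types differed beside the ID genes. Of all tested genes, 13.6% were called higher and 11.7% lower. Of 6 stem cell markers, 4 were called lower and 1 higher, and their summed level was 2952 to 3055 CPM in WT and 2448 to 2558 CPM in Srrm2+/-. Of 6 fibroblast and mesenchyme markers, 4 were called higher, with sums of 4.93 to 5.26 CPM in WT and 10.2 to 13.3 CPM in Srrm2+/-. Among the 4, Col1a2, at 6 to 15 counts per WT library, passed the filter only through Srrm2+/-. Pdgfrb and Thy1 were not called, and Thy1, the highest of the 6 in WT, had a lower mean in Srrm2+/- (1.93 to 1.19 CPM). Of 6 primitive streak and mesoderm markers, 4 were tested and 2 called higher (T and Kdr), with sums of 1.49 to 2.27 and 5.10 to 5.67 CPM. Kdr, at 3 to 9 counts per WT library, passed the filter only through Srrm2+/-, so its direction adds no separate support. Of 7 trophectoderm markers, 5 were tested, 2 called higher and 1 lower, with sums of 54.9 to 55.9 and 39.0 to 42.4 CPM. That sum was mostly Tfap2c, which was called lower (50.6 to 30.8 CPM), while the median log2 fold change of the tested markers was 0.38. Cdx2 had 0 counts in all WT libraries and 5, 8 and 17 in Srrm2+/-, and it did not pass the filter. Of 7 primitive endoderm markers, 5 were tested and 1 was called higher, with sums of 2.39 to 2.70 and 2.56 to 3.64 CPM. Of 6 neural markers, 4 were tested and 2 called lower, with sums of 75.1 to 80.8 and 50.3 to 53.6 CPM. That sum was almost wholly Tubb3 (48.8 to 28.7 CPM) and Pax6 (27.2 to 22.1 CPM), both called lower. The other tested markers, Sox1 (log2 fold change 0.31) and Pax3 (0.29), were not called and had means under 1 CPM. The median log2 fold change of the tested markers, -0.00061, thus lay between unlike pairs. The single markers named here were chosen after their values were seen. In bulk RNA, more cells of a type and more RNA per cell cannot be told apart, and the part of these differences in the ID gene levels was not tested.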

How the data were processed

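The authors pseudo-aligned the reads of 6 stranded total RNA libraries with kallisto 0.46.1 to the GENCODE M24 mouse transcriptome (GRCm38) per the methods and the submitters' processing notes. The values the authors deposited are estimated counts for each gene without normalization. How strand was handled by kallisto is not given in the sources used here. Groups and replicate numbers came from the sample titles. Counts were rounded to whole numbers. Symbols, positions and exon lengths came from GENCODE M21 on the same build, and 42156 of 42450 identifiers matched.

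Genes past filterByExpr (minimum count 10, minimum total 15) were fitted with edgeR 4.0.16 (TMM, glmQLFit, glmQLFTest, a two-sided test) in a model of genotype alone, under R 4.3.3. Benjamini-Hochberg adjustment covered all 18905 genes. The SE was the log2 fold change divided by the square root of F, and the 95% interval used the matching t quantile. Alternatives were RLE and upper quartile scaling, DESeq2 1.42.0, limma voom 3.58.1, other filters, the replicate block, leaving out each library, and a fit in which rRNA, mitochondrial and short RNA genes were taken out first. The code was tested on simulated counts.

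The 8 genes and the pathway and marker lists were chosen with earlier results of these data known. The named genes are Srrm2, the 8 genes, genes of the pathway lists and the 1 most similar gene for each of the 8. Single genes of the marker lists were named after their values were seen. Alternatives were run for pathway genes that were called or at 1 CPM or more in both groups. Same-numbered libraries did not deviate together (correlations -0.0285, -0.0337 and -0.03), so the numbers were not taken as pairs. Every pair of libraries differed by more than sampling noise. RNA spike-ins were not used here.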

Additional observations from a re-analysis of the deposited data

How the results depend on the processing

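Over 14 alternatives, Id1, Id2 and Bmpr1a kept their call and direction, and Bmp7, Smad6 and Id4 kept their direction and stayed uncalled. With 1 library left out, 3 to 5 of the 8 genes and 8 to 11 other pathway genes were called (5 and 13 in the reported fit). Fewer samples entered those fits, and 3515 to 4122 of all genes were called in them, beside 4781 in the reported fit. The log2 fold change ranged from 0.24 to 0.42 for Bmp4 and from 0.30 to 0.43 for Id3. With the replicate block Id3 was at 0.37 (adjusted p 0.0637) and 4 of the 8 genes were called, and the block ended the call of no other of the 8. The block left 10 other pathway genes called, beside 4166 of all 18905 tested genes. It ended the calls of Bmpr2 (adjusted p 0.0855 by edgeR), Acvr2a (0.0539) and Tgfbr3 (0.0806). Same-numbered libraries of the groups did not deviate together, so they share only a number. Among the other pathway genes and Srrm2, 376 of 416 refits kept call and direction. In 28 the call was lost, in 2 it was gained, and in 10 an uncalled value near 0 changed sign. All 10 arose on leaving out 1 library, with log2 fold changes ranging from -0.0366 to 0.166 for Acvr1, -0.134 to 0.0201 for Hey1, -0.00316 to 0.0318 for Ski, -0.0131 to 0.122 for Smad1 and -0.0353 to 0.0258 for Smurf1. The cause was not tested. Bmp7 and Smad6, which were not called, rest on 94 to 252 counts per library. Id2, which was called, had 100 to 145 counts per WT library and 335 to 370 per Srrm2+/- library.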
